A study of Arabidopsis thaliana with 12 samples.

Results

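AT1G29670, AT2G03980, AT1G71250 and AT1G54790 are 4 genes of the GDSL lipase family of Arabidopsis thaliana. They were chosen for their courses over 6 days in culture, each reaching its highest signal on a different day. Each was read by 1 Affymetrix ATH1 probe set that the platform annotation assigns to that gene alone (259788_at for AT1G29670, 263482_at for AT2G03980, 259935_at for AT1G71250 and 264184_at for AT1G54790). They are 4 of 13286 genes named in this way and 4 of 74 family genes among them. Because these same arrays led to their choice, their values are given as a description, with no test.

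GDSL lipases are esterases named for a Gly-Asp-Ser-Leu motif that carries the catalytic serine, and they belong to the larger group of SGNH hydrolases. Many plant members are secreted, and family members act on a wide range of esters, among them cutin and suberin precursors, wall polysaccharides and storage or membrane lipids. The family is large in Arabidopsis and many members have no assigned substrate. The platform annotation and the RefSeq table used here name no substrate for the 4 genes.

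RNA was measured in Col-0 suspension cells brought to form tracheary elements, the water-conducting xylem cells that build a lignified secondary wall and then die. Day 0 cells were untreated. Cells of days 2, 4, 6, 8 and 10 came from 7.5 ml of a 7-day-old culture moved into 42.5 ml of new medium. This held 10 mM boric acid and 1 uM brassinolide, which is a brassinosteroid (a plant steroid hormone). Both media in the labels hold MS salts and sucrose, and the first, without brassinolide and boric acid, also holds 2,4-D, a synthetic auxin. Each day had 2 arrays, 12 in all, with 22 C on the labels of days 0, 4 and 8 and 27 C on those of days 2, 6 and 10. Hormone, boric acid, medium and culture age cannot be told apart in comparisons with day 0, and on days 2, 6 and 10 neither can the labelled temperature. All such comparisons share the same 2 day 0 arrays. No label says whether both arrays of a day had a culture each, so their spread may be technical.

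Values are the MAS5 signals deposited by the authors, on a linear scale with no unit. Median signals ran from 33.2 to 40.7 over the arrays, and 40th percentiles from 17.2 to 22.1. A signal below the 40th percentile of its own array is called dim here and has only a bound. Where a day was dim, the fold is given as at least the ratio obtained with arrays raised to their own 40th percentile. No fold is given where both days had a dim array. The median gap between the arrays of a day was 0.133 to 0.153 (log2, over 15103 probe sets tested). Apart from a summed marker signal, signals of different probe sets are not set against each other, and only the course of each gene is compared.

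AT1G29670 was above the 40th percentile on day 0 only. Its day 0 arrays gave signals of 63.0 and 42.8, day 2 gave 0.334 and 0.186, day 4 gave 0.308 and 0.255, day 6 gave 0.306 and 0.303, day 8 gave 0.294 and 0.276, and day 10 gave 0.375 and 0.269. Both day 0 arrays lay above all 10 later arrays, and the 10 later arrays were all dim, so the later days have no order. The signal was at least 2.80-fold lower on day 2 than on day 0, and at least 2.61-fold, 2.49-fold, 2.36-fold and 2.44-fold lower on days 4, 6, 8 and 10. The fitted log2 differences from day 0 were -7.70, -7.53, -7.42, -7.51 and -7.35 on days 2 to 10 (SE 1.60, n = 2 arrays a day). This SE also draws on the spread of other probe sets, and the residual SD of the gene's own arrays was 0.33 (log2). The differences depend on signals near the bottom of the scale and are not a measure of the fold. In RNA from whole cultures, fewer cells of a type and less RNA per cell cannot be told apart.

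AT2G03980 was highest on day 2 and dim from day 4 on. Its day 0 arrays gave signals of 27.7 and 34.9, day 2 gave 207 and 194, day 4 gave 3.78 and 13.0, day 6 gave 9.18 and 10.5, day 8 gave 14.0 and 10.5, and day 10 gave 17.0 and 10.7. The arrays of day 2 lay above those of every other day, and both day 0 arrays lay above the 8 arrays of days 4 to 10. Day 2 was 6.44-fold higher than day 0, a log2 difference of 2.69 (SE 0.46). Day 4 was at least 10.03-fold lower than day 2, and days 6, 8 and 10 were at least 9.60-fold, 9.08-fold and 9.41-fold lower than day 2. Against day 0, the signal was at least 1.56-fold lower on day 4, 1.49-fold on day 6, 1.41-fold on day 8 and 1.46-fold on day 10. The 4 late days were dim on all 8 arrays and have no order.

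AT1G71250 was above the 40th percentile on days 2 and 4 and dim on all 8 arrays of the other days. Its day 0 arrays gave signals of 8.54 and 1.66, day 2 gave 95.2 and 74.5, day 4 gave 363 and 350, day 6 gave 19.7 and 17.7, day 8 gave 9.93 and 10.9, and day 10 gave 3.48 and 12.5. Day 4 stood above day 2, and day 2 above the 4 other days, with no overlap of arrays. The signal was at least 19.6-fold higher on day 4 than on day 0 and at least 4.63-fold higher on day 2 than on day 0. Day 4 was 4.23-fold higher than day 2. Day 6 was at least 17.1-fold lower than day 4 and at least 4.04-fold lower than day 2. Days 8 and 10 were at least 16.2-fold and 16.8-fold lower than day 4. The day 0 arrays differed from each other, as a ratio, more than those of any other day, so the fitted log2 difference of 6.56 on day 4 (SE 0.66) carries the spread of dim signals.

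AT1G54790 was dim on days 0 and 2, stood above the 40th percentile on all 8 later arrays, and was highest on day 6. Its day 0 arrays gave signals of 6.44 and 6.80, day 2 gave 6.56 and 8.97, day 4 gave 72.9 and 94.1, day 6 gave 451 and 379, day 8 gave 221 and 232, and day 10 gave 118 and 87.4. The order of days was 6, 8, then 10 and 4, whose arrays overlapped, then the dim days 2 and 0. Day 6 was 4.99-fold higher than day 4. Day 8 was 1.83-fold lower and day 10 was 4.07-fold lower than day 6. Day 10 was 2.23-fold lower than day 8 but 1.22-fold higher than day 4, a difference smaller than the gap between the arrays of day 10. Against day 0 the signal was at least 4.55-fold higher on day 4, 22.7-fold on day 6, 12.4-fold on day 8 and 5.57-fold on day 10.

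**Figure D1:**
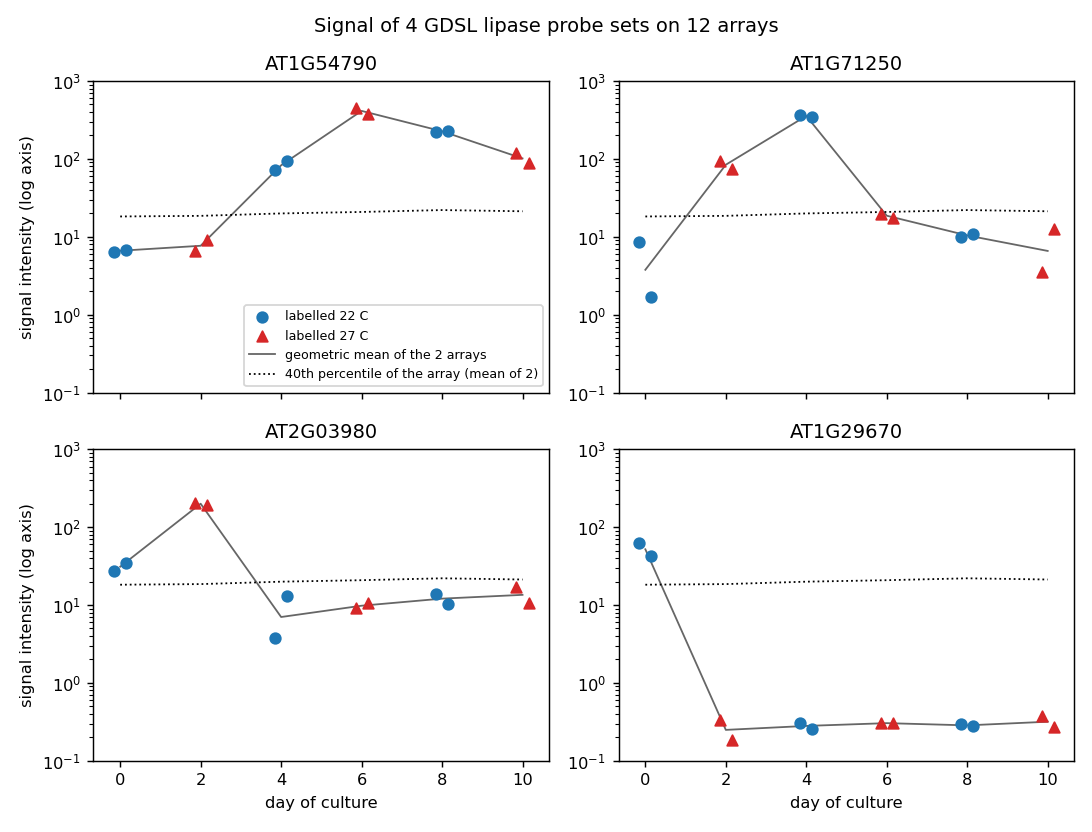
Signal of each of the 4 genes on every array (log axis) against the day of culture, with blue circles for arrays labelled 22 C and red triangles for arrays labelled 27 C. Grey lines join the geometric means of the 2 arrays of a day, and the dotted line is the 40th percentile of the arrays: AT1G29670 stands above it on day 0 only, AT2G03980 on days 0 and 2, AT1G71250 on days 2 and 4, and AT1G54790 from day 4 on.

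The highest means of AT2G03980 and AT1G54790 were on days labelled 27 C and those of AT1G29670 and AT1G71250 on days labelled 22 C. No course followed the temperature label throughout. AT1G54790 was at least 22.3-fold higher on day 6 than on day 2, both 27 C days, and AT1G71250 was at least 19.6-fold higher on day 4 than on day 0, both 22 C days. Likewise, AT2G03980 was at least 9.60-fold lower on day 6 than on day 2, and AT1G29670 was at least 2.61-fold lower on day 4 than on day 0.

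The 4 courses had little in common. Over the 12 arrays, Pearson's r of log2 signal was -0.75 between AT1G54790 and AT2G03980, -0.59 between AT1G54790 and AT1G29670, and -0.51 between AT1G71250 and AT1G29670. It was 0.13 between AT2G03980 and AT1G29670, 0.01 between AT1G71250 and AT2G03980 and -0.0030 between AT1G54790 and AT1G71250. These values describe 12 arrays that share culture days, they include dim arrays, and the genes were chosen for peaking on different days.

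The course of AT1G54790 was set beside that of tracheary element markers. The list held 25 loci, of which 8 were named on the array. Those with a known part in wall formation include IRX15, IRX15-L and GUT2 (also known as IRX10), which act in synthesis of the wall polysaccharide xylan, and the peroxidase gene AT5G66390. Of the 8 markers, 6 were dim on both day 0 arrays and all 8 were above the 40th percentile on both day 6 arrays. The mean was highest on day 6 for 7 of them and on day 4 for AT4G04460. Their summed signal, to which scpl48 gave the largest part, was 5177 to 6254 on the day 6 arrays, against 642 to 720.2 on the day 0 arrays. Without scpl48 it was 2589 to 2971 on day 6, against 83.5 to 100.3 on day 0. Such sums lean on the brightest probe sets. None of the 8 phloem and 5 epidermis markers listed was named by the annotation used, which lists no gene for 8730 probe sets, so those cell types were not analysed here.

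AT1G54790 lay inside the range of the 7 markers that were highest on day 6. Its day 4 mean was 20.1% of its day 6 mean, against 16.5% to 54.1% for 6 of the markers. The remaining marker, AT5G66390, was dim on day 4 and at least 10.9-fold higher on day 6 than on day 4. The day 8 mean was 54.6% for AT1G54790 and 21.2% to 83.1% for the markers, and the day 10 mean was 24.7% for AT1G54790 and 10.6% to 68.8% for the markers. IRX15-L came close to it with 20.4% on day 4, 45.2% on day 8 and 20.04% on day 10. AT1G71250, in contrast, was highest on day 4 like AT4G04460, but AT4G04460 still had 40.6% of its day 4 mean on day 6, when AT1G71250 was dim. The part of tracheary element number in either course was not tested.

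**Figure D2:**
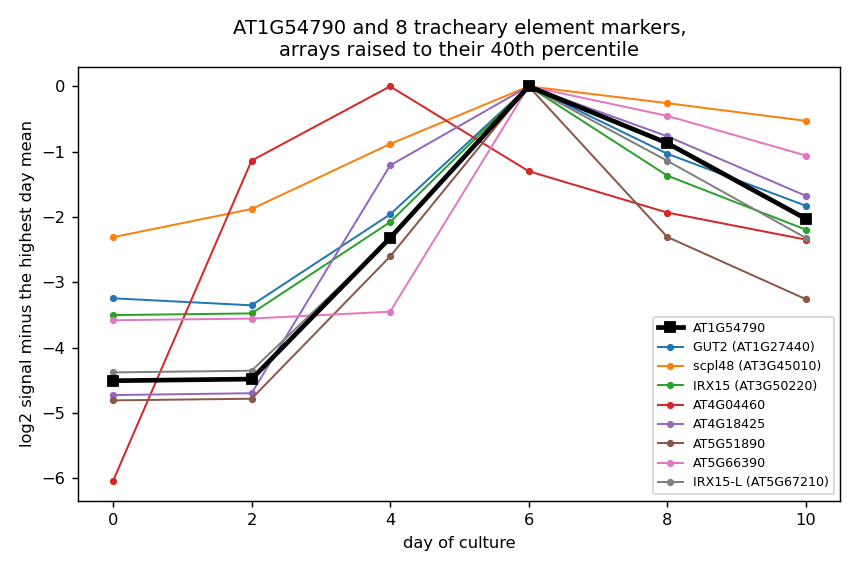
Day means of AT1G54790 (black squares) and 8 tracheary element markers (circles) against the day of culture, as log2 signal less the highest day mean of the same gene, with arrays raised to their own 40th percentile. AT1G54790 and 7 markers reach 0 on day 6, and AT4G04460 reaches 0 on day 4.

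Genes with the most similar courses were ranked by Pearson's r of log2 signal over the 12 arrays, among tested probe sets with 1 gene. For AT1G54790 these were AT1G48280 (r = 0.992), AT1G47410 (0.989), AT1G02300 (0.989), AT1G03920 (0.987) and AT1G73750 (0.986), all highest on day 6. AT1G48280, for example, had day means of 25.2, 22.3, 214, 622, 322 and 174 on days 0 to 10. The same measure was 0.937 to 0.986 for the 7 markers that were highest on day 6 and 0.516 for AT4G04460. It reached 0.9 for 630 of 15102 other tested probe sets, so such likeness was common.

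For AT1G29670 the most similar courses were those of SAL2 (0.994), AT5G52050 (0.993), AT3G57160 (0.992), AT5G52580 (0.987) and AT5G44580 (0.987), all highest on day 0. SAL2 had day means of 446, 5.78, 6.04, 7.33, 5.61 and 8.75. Like AT1G29670, 4 of the 5 were above the 40th percentile on both arrays of day 0 only, and AT5G52580 was bright on every day. The measure reached 0.9 for 776 probe sets.

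Far fewer probe sets reached an r of at least 0.9 with AT2G03980 and AT1G71250, 70 and 41. Both genes had 8 dim arrays with scattered signals, such as 3.78 and 13.0 on day 4 for AT2G03980, which can lower r. These counts are thus no measure of how many genes share the courses. Closest to AT2G03980 were AT3G10300 (0.955), AT2G40430 (0.949), AT3G18510 (0.948), AT3G52360 (0.941) and AT5G42960 (0.938), all highest on day 2. AT3G10300 had day means of 188, 428, 122, 147, 165 and 156. Closest to AT1G71250 were AT3G11180 (0.968), AT5G38160 (0.944), AT5G04160 (0.938), AT1G23520 (0.937) and AT1G05720 (0.934). Of these 5, AT5G04160 was highest on day 2 and the others on day 4. AT5G38160 had day means of 16.7, 94.3, 505, 43.6, 16.5 and 12.3. Pearson's r takes no account of the size of a change, and AT1G05720 ran only from a mean of 244 on day 0 to 339 on day 4.

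The ranking leaned on dim arrays for some of the genes. With arrays raised to their own 40th percentile, an alternative added after the values had been seen, all 5 genes named for AT1G54790 stayed among its 25 most similar of 8268, and 4 of 5 did for AT1G71250. For AT1G29670 only 1 of the 5 did, and for AT2G03980 none, although their r stayed at 0.949 to 0.998 and 0.896 to 0.937.

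AT1G29670 lies directly beside another family gene, AT1G29660, in the gene order of the RefSeq table (assembly TAIR10.1). For AT1G29660, day 0 gave 112 and 95.4, day 2 gave 17.0 and 10.3, day 4 gave 0.598 and 3.96, day 6 gave 7.41 and 3.66, day 8 gave 1.64 and 1.22, and day 10 gave 2.25 and 3.26. Like AT1G29670 it was dim on all 10 later arrays and passed the filter for testing through day 0 alone, so no test is given for it. Cross-hybridisation between the probe sets of these neighbours was not tested. It was at least 5.57-fold lower on day 2 than on day 0 and at least 4.85-fold lower on day 10 than on day 0. AT1G29680, on the opposite side, was not tested because it was dim on 11 of 12 arrays, and AT1G29630 was not called (limma moderated F over the 5 later days, Benjamini-Hochberg adjusted p = 0.568). AT1G29700 fell, with a mean of 41.7 on day 10 against 59.7 on day 0 (adjusted p of the F 0.0253).

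The other 3 genes had no family neighbour with measured signal. AT2G04020, next to AT2G03980, was dim on all 12 arrays. No family gene lay within 3 places of AT1G54790 or AT1G71250.

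The array named 70 other GDSL family genes, of which 43 were dim on all 12 arrays and 24 passed the filter, which asks for both arrays of at least 1 day at the 40th percentile or above. All 4 chosen genes passed it. AT2G38180, AT3G11210, AT5G45920 and AT5G62930 were less surely family members than the others. A gene that passed only through a high day had to differ, so the counts over these 24 describe the genes that passed and not the family. The moderated F test of limma called 21 of 24 at a Benjamini-Hochberg adjusted p under 0.05, or 87.5%, beside 80.8% of all probe sets tested.

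Over all probe sets, higher calls were the more frequent with the deposited scaling, and their split under other scalings was not counted. Among the 24 family genes, in contrast, those called lower outnumbered those called higher on every day. Calls in either direction numbered 15 on day 2 (62.5%, beside 61.3% of all tested), 17 on day 4 (70.8%, beside 61.5%), 17 on day 6 (70.8%, beside 62.5%), 15 on day 8 (62.5%, beside 63.5%) and 18 on day 10 (75%, beside 63.9%). On day 2, 4 were higher and 11 lower than on day 0, or 16.7% and 45.8%, beside 35.3% and 26.1% of all probe sets tested. On day 6, 5 were higher and 12 lower, or 20.8% and 50%, beside 34.5% and 28% of all. The 5 were 3 without replicate 1 of day 6 and with raised arrays, and with no filter the 70 genes gave 10 higher and 13 lower calls on day 6. Days 4, 8 and 10 had 6, 5 and 6 higher and 11, 10 and 12 lower, where the share of all probe sets was 35.8%, 36.2% and 36.4% higher and 25.8%, 27.3% and 27.6% lower. On day 4 the 6 higher calls were 4 after quantile normalization, median centring or removal of replicate 1 of day 4 or either array of day 0, and 3 without replicate 2 of day 4. Of the 4 higher calls on day 2, that of AT3G48460 rested on dim signals and was lost when dim arrays were raised. The lower calls were not all firm either. On day 6, those of AT3G62280 and AT4G16230, each of which passed the filter through 1 day alone, were lost with raised arrays. In that alternative 11 lower calls were made on day 6. The lower call of AT4G26790 on day 2 was lost after quantile normalization, with no filter and in other alternatives. The median log2 difference from day 0 of the 24 was -0.26, -0.89, -0.37, -0.45 and -0.51 on days 2 to 10, beside 0.07, 0.10, 0.05, 0.09 and 0.08 for all tested probe sets.

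**Figure D3:**
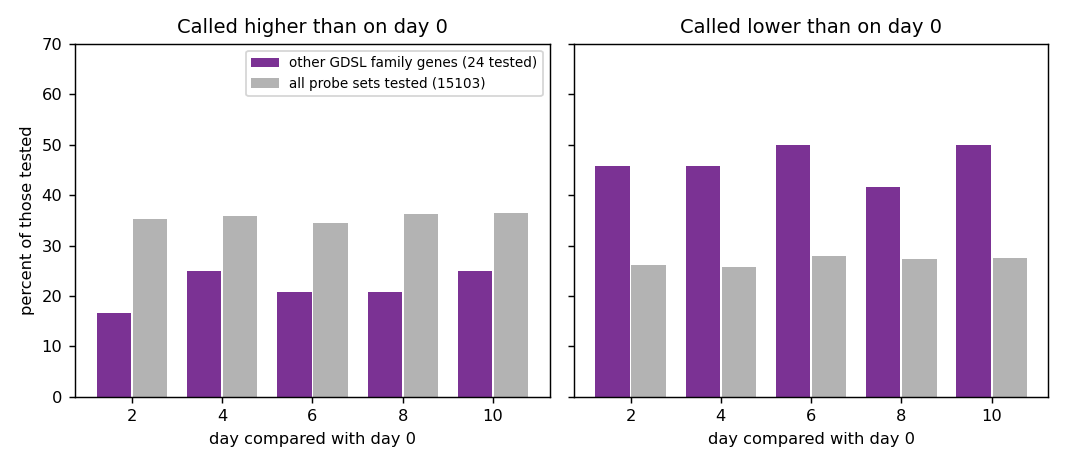
Percent of the 24 tested GDSL family genes (purple), without the 4 chosen ones, and of all 15103 probe sets tested (grey) called higher (left) or lower (right) than day 0 on each later day (limma, Benjamini-Hochberg adjusted p under 0.05). Of the 24, the share called lower was 41.7% to 50% and the share called higher 16.7% to 25%.

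The peak day of AT1G29670 was the most frequent among these 24 genes and that of AT1G54790 one of the least. Day 0 held the highest mean of 11 of the 24 (45.8%), day 2 that of 4 (16.7%) and day 8 that of 6 (25%). Days 4, 6 and 10 held that of 1 each (4.17%). Over all tested probe sets the shares for days 0 to 10 were 28.9%, 24%, 12.8%, 11.9%, 6.98% and 15.3%. The single family gene highest on day 6, AT3G53100, was not called (moderated F, adjusted p = 0.649). AT3G53100, AT1G29660 and AT3G62280 passed the filter through day 0 alone, which favours a high day 0 mean. Peak-day counts over the 24 thus lean on the filter.

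**Figure D4:**
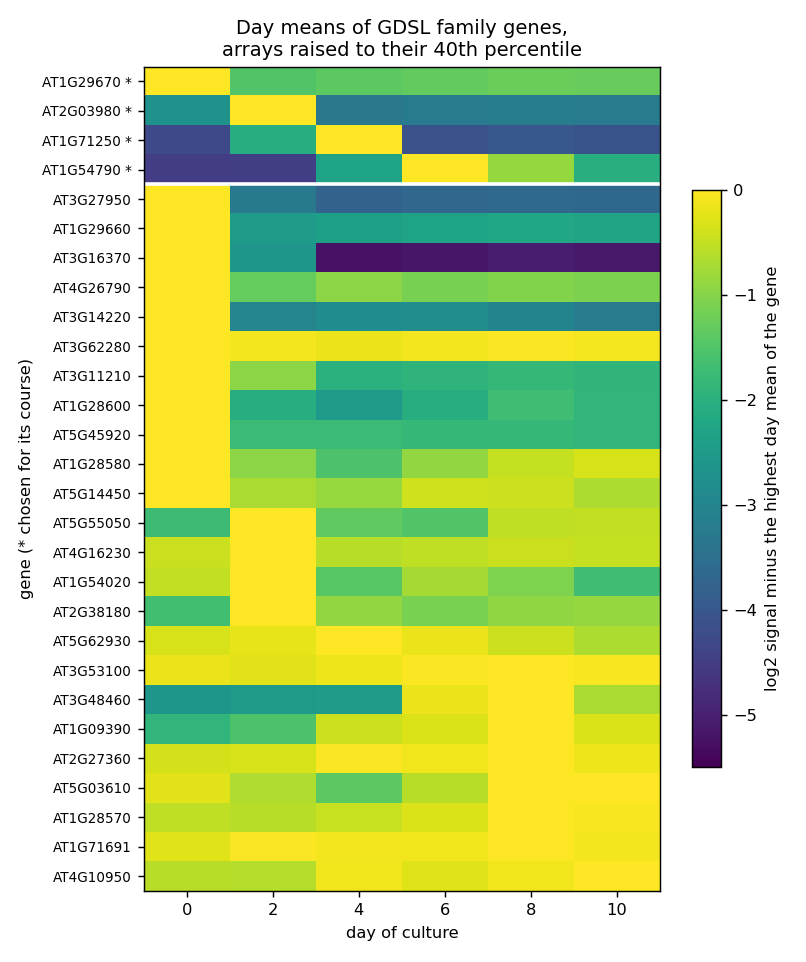
Day means of the 4 chosen genes (asterisks, top) and of the 24 other tested family genes, as log2 signal less the highest day mean of the gene, with arrays raised to their own 40th percentile. Yellow marks the highest mean (0) and dark blue the lowest. The lower block is sorted by the peak day of the deposited signals, and day 0 is yellow for the 11 genes at its top.

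Of the 24, 8 were called lower on all 5 later days (33.3%, beside 14.8% of all probe sets tested), namely AT1G28580, AT1G28600, AT1G29660, AT3G11210, AT3G14220, AT3G16370, AT3G27950 and AT5G45920. These include AT1G29660, which had to differ by the filter, having passed it through day 0 alone. AT3G11210, AT3G16370 and AT3G27950 passed it through days 0 and 2 and were dim on all 8 arrays of days 4 to 10. Their lower calls on those days lean on the filter too. The day 2 call of AT3G11210 was lost with no filter and on leaving out any array of day 0 or day 2, and the day 10 call of AT1G28580 after quantile normalization. AT3G16370, AT3G27950, AT3G48460, AT5G55050 and AT2G27360 passed the filter only through their higher days, so their adjusted p-values are given as a description. Their F calls were made without the filter too. These genes were named as called ones of large range, so that adds no support. For AT3G16370, day 0 gave 760 and 729, day 2 gave 118 and 131, day 4 gave 17.3 and 9.62, day 6 gave 14.1 and 9.67, day 8 gave 21.8 and 18.8, and day 10 gave 14.9 and 21.4. It was still above the 40th percentile on day 2 and was at least 37.3-fold lower on day 4 than on day 0 (moderated F, adjusted p = 2.70e-08). AT3G27950 likewise stayed bright on day 2, with 24.9 and 31.3 on day 2 against 265 and 274 on day 0, and was at least 13.5-fold lower on day 4 than on day 0 (adjusted p of the F 1.45e-05).

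The 3 family genes most like AT1G29670 were AT3G14220 (r = 0.983), AT1G28600 (0.948) and AT5G45920 (0.935). Among all other tested probe sets they ranked only 27, 288 and 402 by r, so many genes outside the family were closer. AT3G14220 had day means of 862, 108, 121, 124, 107 and 93.3 on days 0 to 10 and, unlike AT1G29670, was bright on all arrays. Its log2 difference from day 0 was -2.99 on day 2 and -3.21 on day 10 (SE 0.10, limma adjusted p of the F 1.77e-09). AT1G28600 belongs to a run of family genes from AT1G28570 to AT1G28650, of which 7 were read and 3 tested.

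**Figure D5:**
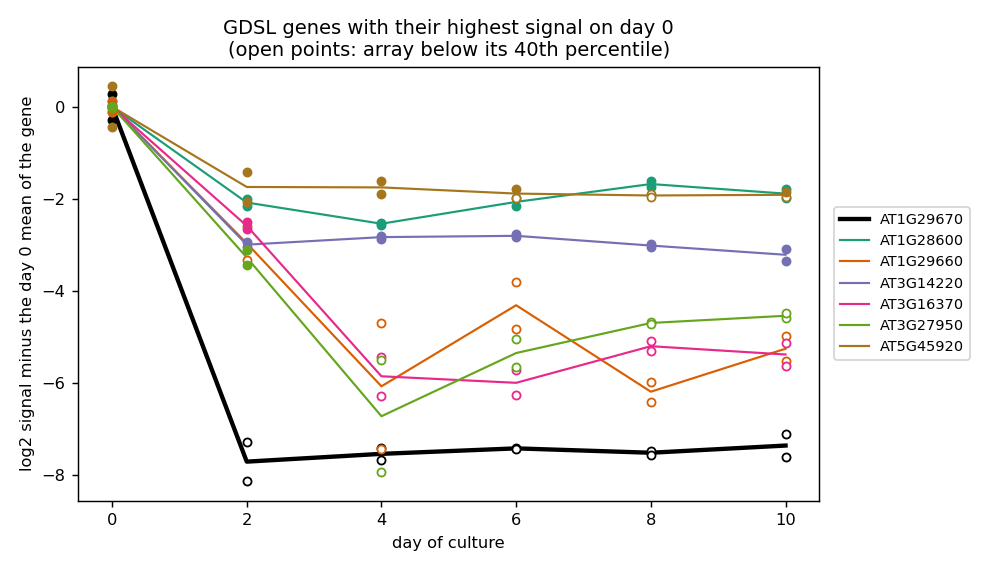
Log2 signal of AT1G29670 and 6 family genes that were highest on day 0, less the day 0 mean of each gene, against the day of culture. Points are single arrays (open where dim), lines join day means, and the 6 are the 3 most like AT1G29670 and the 3 of largest range. AT1G29670 and AT1G29660 were dim on every later array, while AT3G14220 levelled off about 3 log2 units below day 0.

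Calls in the higher direction on all 5 later days were made for 2 of the 24 (8.33%, beside 20% of all probe sets tested), AT5G55050 and AT2G38180, both highest on day 2. AT5G55050 had signals of 70.3 and 51.4 on day 2 and 54.8 and 32.9 on day 10, against 8.06 and 7.36 on day 0 (moderated F, adjusted p = 1.01e-04). It passed the filter only through its higher days, so that p-value is a description. It was dim on day 0 and on 1 array each of days 4 and 6, so no bound is given for its fold on those days against day 0. Its day 4 call was lost with raised arrays and without replicate 2 of day 4, and its day 6 call with raised arrays and without replicate 1 of day 6. AT2G38180 was above the 40th percentile throughout, with day means of 183, 576, 309, 267, 307 and 315 (adjusted p of the F 1.07e-07). AT1G54020 was the family gene most like AT2G03980 (r = 0.789). Its log2 difference from day 0 was 0.51 on day 2 (SE 0.16, adjusted p = 0.0168) and -0.92 on day 4 (SE 0.16, adjusted p = 4.11e-04) in the limma fit. The call on day 2 was lost when replicate 2 of day 0 was left out and when the first array of day 2 was. AT4G16230 had a mean of 29.8 on day 2 against 21.3 on day 0, when 1 array was dim. It was dim on all 8 arrays of days 4 to 10. Having passed the filter through day 2 alone, it is given no test.

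AT5G62930 was the 1 other tested family gene with its highest mean on day 4, the peak day of AT1G71250. It had day means of 106, 115, 133, 119, 99.2 and 83.7 on days 0 to 10 (limma moderated F, adjusted p = 0.00403). Its r with AT1G71250 was 0.705.

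Later rises were seen in AT3G48460 and AT1G09390, both highest on day 8. For AT3G48460, day 0 gave 7.34 and 7.28, day 2 gave 17.1 and 14.0, day 4 gave 7.54 and 5.85, day 6 gave 78.8 and 122, day 8 gave 122 and 97.3, and day 10 gave 69.2 and 64.6. It was dim through day 4, and its day 6 and day 8 arrays overlapped. The signal was at least 5.39-fold higher on day 6 than on day 0 (moderated F, adjusted p = 5.96e-08). This gene passed the filter only through its higher days, so that p-value is a description. AT1G54790, in comparison, was already at least 4.55-fold above day 0 on day 4. AT1G09390 was the family gene most like AT1G54790 (r = 0.916), with day means of 29.1, 36.5, 77.8, 84.9, 104 and 84.3. Its log2 difference from day 0 was 1.46 on day 4 and 1.88 on day 8 (SE 0.21, limma adjusted p of the F 2.69e-05).

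AT2G27360 and AT4G10950 followed AT1G54790 less closely (r = 0.818 and 0.740). AT2G27360 had a mean of 23.4 on day 8 against 7.62 on day 0, when both arrays were dim. Its signal was at least 1.28-fold higher on day 8 than on day 0. This gene passed the filter only through its higher days, so its moderated F call (adjusted p = 0.00102) is a description. That call was lost with raised arrays. AT4G10950 had a mean of 31.3 on day 10 against 20.7 on day 0, and its F call (adjusted p = 0.0372) was lost in 12 of 20 alternatives. RXF26, the other family gene with a symbol of its own in the annotation, was dim on all 12 arrays.

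Some known GDSL lipases act in making or breaking down suberin and cutin, so genes of these polymers were looked up. Of 34 listed, 1 was named by the annotation used, and the others were not analysed here. This gene, AT5G55340, was not called (limma moderated F, adjusted p = 0.212, unadjusted p = 0.193).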

How the data were processed

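The authors deposited MAS5 signal intensities on a linear scale for 22810 probe sets, per the submitters' processing notes, with no MAS5 version stated. Here 64 Affymetrix controls were left out. Of the other 22746 probe sets, 13513 had 1 gene in the platform annotation, 503 several and 8730 none listed, and none was named from the last 2 kinds. Names and gene order came from RefSeq (TAIR10.1), where 13436 matched. A test needed both arrays of at least 1 day at the array's 40th percentile or above, which kept 15103 probe sets. The log2 intensity was modelled by limma 3.58.1 under R 4.3.3 (lmFit with 1 mean per day over 12 arrays, eBayes with a variance trend, 6 residual degrees of freedom). The 2-sided p-values were Benjamini-Hochberg adjusted over these probe sets. The p-values measure the spread between arrays, which may be technical. Family genes came from a hand-written list of loci plus RefSeq names with GDSL, 112 loci in RefSeq. The 4 genes and all lists were chosen with earlier results of these data known. Named family genes were, per peak day, the 3 called ones of largest range, neighbours of the 4 genes, those with a symbol of their own and the 3 most similar to each of the 4. Genes named for a count of 8 or fewer followed their values. The fit was tested on simulated data.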

Additional observations from a re-analysis of the deposited data

How the results depend on the processing

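The day of the highest mean was the same for all 4 chosen genes in every alternative run on them (normalization, filter, pseudocount, raised arrays, variance trend, replicate block, shared probe sets and each array left out), and 18 of their 20 log2 differences from day 0 kept their sign. Both exceptions lie between dim days. AT1G54790 on day 2 ran from -0.013 (replicate 2 of day 2 left out) to 0.44 when single arrays were left out. AT1G71250 on day 10 ran from -0.37 (replicate 2 of day 0 left out) to 1.98, with -0.12 when replicate 2 of day 10 was left out. For AT1G71250 the log2 difference on day 4 was 7.74 or 5.38 when the first or the second array of day 0 was left out. Over the other family genes, a filter at the 60th percentile left 13 tested, with 13 called at any time and 11 called on day 6. Leaving out 1 array at a time gave 19 to 21 calls at any time, 12 to 15 for day 2, 14 to 17 for each of days 4, 6 and 8, and 16 to 19 for day 10. The suberin and cutin gene stayed uncalled, with 0 calls in each. Median centring moved the median log2 difference of all probe sets on day 8 to -0.17, against 0.09 as deposited. Whether higher calls stayed the more frequent over all probe sets was not counted. Among the family genes, lower calls still outnumbered higher ones. Replicate numbers were not taken as pairs, since deviations of same-numbered arrays correlated at -0.07 to 0.13 over days. With the replicate block, 14 were called on day 2 against 15 without it, and the other counts were equal. Without 4 loci less surely in the family, an alternative added after seeing the data, 17 of 20 were called at any time. Signals below the 40th percentile limit folds with those days to bounds, and 2 arrays a day limit the precision.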
